A study of Mus musculus with 16 samples.

Results

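In whole dorsal skin, 111 of the 55359 genes in the count tables were reduced to 0.5 of their control level or less after UVB in both male and female mice. The genes were selected on the measured values themselves. Counts were turned into CPM, which is reads of a gene per 1000000 reads on genes in that mouse, and a gene was kept when its mean was at least 2 CPM in the control males and in the control females. It also had to have a mean in UVB-irradiated mice of at most 0.5 of the control mean in each sex. The floor alone was passed by 13741 genes, of which 357 met the limit in males and 152 in females. The fall after UVB is therefore what defines these genes, and its values are given as a description without a test.

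The study profiled 16 wild-type C57Bl/6 mice aged 8 weeks, named C57Bl/6N in the paper. The paper gives rest (telogen) as the follicle stage for its melanocyte migration experiments, and not for each mouse sequenced here. Each sex had 4 control mice without UVB and 4 that were exposed to UVB 3 times, and tissue was collected on day 5, 6 h past the final exposure. Polyadenylated RNA of the whole tissue was sequenced, so each value is an average over epidermis, hair follicles, dermis, fat, muscle, nerve and immune cells. In such bulk samples, fewer cells of a type and less RNA per cell cannot be told apart.

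Skin consists of an epidermis of keratinocytes that divide in the basal layer and differentiate as they move up, hair follicles that hold stem cells in a niche called the bulge, and a dermis of fibroblasts, vessels, nerves and resident immune cells. UVB is absorbed largely in the epidermis, where it damages DNA and sets off thickening, inflammation and pigmentation. A mouse gene is made of exons, which stay in the mature RNA, and introns, which are removed, and its genomic span is the distance from its first to its last annotated base with introns included.

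Between 16495776 and 33404831 reads per mouse fell on genes, and no library was left out. Markers of the labelled tissue were abundant in every mouse, with 9526 to 28614 CPM for 12 suprabasal keratinocyte genes together and 13830 to 84284 CPM for 13 fibroblast genes together. The control males had 77723 to 84284 CPM of the fibroblast genes, mostly collagen transcripts, against 22357 to 23945 CPM in the control females. A large share taken by a few genes lowers the CPM of all others, and its part in the selection was not tested. The selection kept 79 of the 111 genes when libraries were scaled by edgeR's TMM factors or by DESeq2's size factors, and the median ratio over all genes above the floor, without such scaling, was 0.976 in males and 0.941 in females.

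Upstream sequences are shown for 3 genes that recur in the results. These are the adjacent *Col4a6* and *Col4a5*, and *Cacna1e* as a long gene with a low ratio in both sexes. Each stretch is read from GRCm39 on the strand of its gene, 5′ to 3′, and ends at the start of the canonical transcript in the GENCODE annotation. Capitals mark matches to the motifs searched on both strands.
Col4a6, chrX:140257073-140257322, minus strand: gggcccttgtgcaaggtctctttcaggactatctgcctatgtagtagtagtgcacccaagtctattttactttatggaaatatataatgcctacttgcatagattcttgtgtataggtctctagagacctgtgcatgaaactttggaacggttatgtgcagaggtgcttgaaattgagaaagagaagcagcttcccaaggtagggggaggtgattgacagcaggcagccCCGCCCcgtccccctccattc
Col4a5, chrX:140258104-140258353, plus strand: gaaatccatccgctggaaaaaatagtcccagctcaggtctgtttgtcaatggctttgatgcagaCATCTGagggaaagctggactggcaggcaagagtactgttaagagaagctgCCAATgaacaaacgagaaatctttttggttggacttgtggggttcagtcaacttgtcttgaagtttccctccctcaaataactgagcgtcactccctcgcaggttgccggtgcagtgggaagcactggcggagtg
Cacna1e, chr1:154602519-154602768, minus strand: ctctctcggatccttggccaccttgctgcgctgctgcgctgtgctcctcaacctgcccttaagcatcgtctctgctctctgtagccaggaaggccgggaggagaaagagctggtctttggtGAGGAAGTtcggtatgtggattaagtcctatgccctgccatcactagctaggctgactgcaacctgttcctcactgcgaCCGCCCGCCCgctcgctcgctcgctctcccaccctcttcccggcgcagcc

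*Col4a6* and *Col4a5* lie head to head on the X chromosome with starts 1.282 kb apart, so both stretches lie in the gap between the genes. The *Cacna1e* stretch lies within the span of the gene, because longer transcripts start further upstream. Motif shares were counted in the 250 bases upstream of each start for the 110 annotated members and the 13730 annotated genes above the floor, with no test. The AP-1 motif (TGANTCA) was found in 11 members (10%) against 5.11% of all, the forkhead motif TGTTTAC in 4.55% against 2.38%, and the GC box (GGGCGG) in 35.5% against 47.4%. The other shares were 6.36% against 7.89% for the TATA box (TATAAA), 33.6% against 35.4% for CCAAT, 68.2% against 60.8% for the E-box (CANNTG), 4.55% against 7.58% for its form CACGTG, 9.09% against 8.03% for the M-box core CATGTG, 3.64% against 2.13% for the PU.1 motif GAGGAAGT and 6.36% against 4.24% for AACAAAG, bound by TCF/LEF and SOX factors. The forms CACGTG and CATGTG are also counted as E-boxes. A match is a description of the letters, and factor binding was not measured.

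The ratio of the UVB mean to the control mean had a median of 0.392 over the 111 genes in males, from 0.0971 to 0.500 without *Hamp*, whose reads in UVB-irradiated males are too few for a ratio, and of 0.433 in females, from 0.113 to 0.499. A ratio of 0.25 or less was found for 14 genes in males, *Hamp* included, and for 2 in females. For 103 genes all UVB-irradiated males were below all control males, and for 101 genes the same held in females, where 26.0% and 18.6% of all genes above the floor had groups that did not overlap in this direction. In the fits across all genes with edgeR's quasi-likelihood test and Benjamini-Hochberg adjustment, 30.5% of 16535 genes fell and 29.0% rose in males, and 10.6% of 16883 fell and 12.8% rose in females. The filter on low counts was passed by 110 members in males, all but *Hamp*, and by 111 in females.

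**Figure D1:**
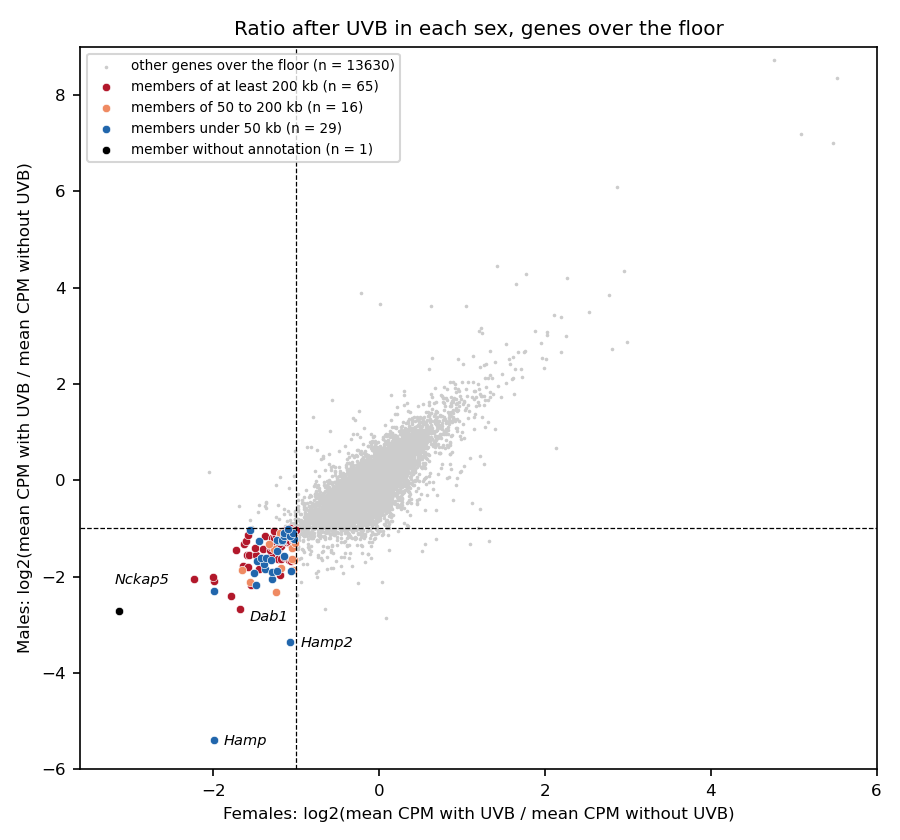
Ratio of mean CPM with UVB to mean CPM without UVB on the log2 scale, females on the x axis and males on the y axis, for 13741 genes above the floor. Dashed lines mark the selection limit, coloured points are the 111 selected genes by genomic span, grey points are all others, and *Hamp2* lies far lower in males than in females. The male position of *Hamp* rests on too few reads to be read.

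Mice differed little in how far the group as a whole was lowered. Relative to the control mean of the same sex, the median over the 111 genes was 0.338, 0.354, 0.381 and 0.402 in the 4 UVB-irradiated males and 0.440, 0.372, 0.414 and 0.436 in the 4 UVB-irradiated females. Control mice lay between 0.946 and 1.04 of a mean that they form themselves. At least 110 of the 111 genes were below the control mean in each UVB-irradiated mouse. The selection required a low mean of these mice, so this count follows largely from it. In 83 genes (74.8%) the ratio was lower in males than in females, compared with 38.0% of all genes above the floor. Both ratios were used in the selection, so this share is not independent of it and is a description.

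Most of these genes were very long. The median genomic span was 311 kb among the 110 members with an annotation, against 25.9 kb among 13730 genes above the floor. At least 200 kb were spanned by 65 members (59.1%) and by 4.89% of the genes above the floor, 16 members spanned 50 to 200 kb and 29 less than 50 kb. Their exons were only moderately longer, with a median exonic length of 9.47 kb against 6.22 kb, so that exons made up a median of 3.95% of the span, against 24.2%. By annotation 104 members were protein-coding and 6 were long non-coding RNAs, and the identifier ENSMUSG00000075014.2 is not in the annotation used.

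The share of genes that were selected rose with span. It was 14 of 2958 genes (0.473%) under 10 kb, 22 of 480 (4.58%) from 200 to 400 kb, 30 of 147 (20.4%) from 400 to 800 kb and 13 of 45 (28.9%) at 800 kb or more. The whole distribution moved as well. Genes under 10 kb had a median ratio of 1.03 in males and 1.01 in females, those of 100 to 200 kb 0.835 and 0.831, and those of 800 kb or more 0.518 and 0.574. Of the 672 genes of at least 200 kb, 622 had a ratio below 1 in both sexes and 12 had a ratio of at least 1 in both. Across the 13730 genes, which share libraries and are not independent, Spearman's rho of span with the log2 ratio was -0.25 in males and -0.38 in females. Within the 110 members it was 0.14 and -0.12, over ratios that the selection had cut off at 0.5.

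**Figure D2:**
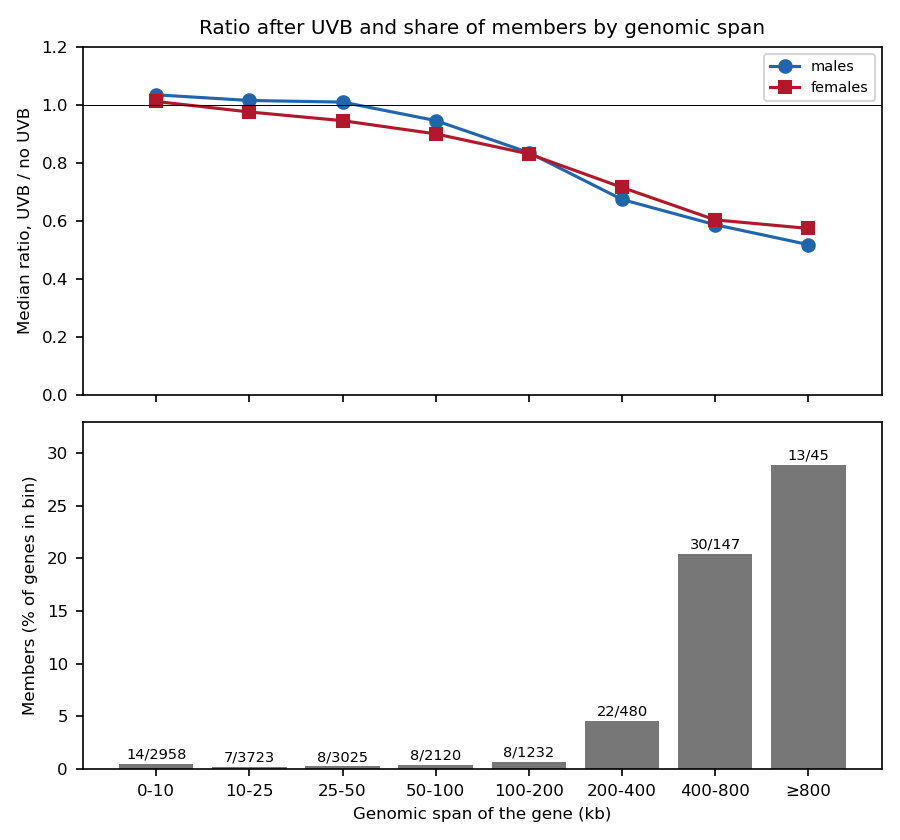
Upper panel, median ratio of UVB to no-UVB mean CPM in bins of genomic span (kb) for males and females, and lower panel, percentage of genes in each bin that belong to the 111, with their number over the number of genes. The medians decline from 1.03 and 1.01 in the first bin to 0.518 and 0.574 in the last, while the share of members rises to 28.9%.

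Length of the exons did not show the same gradient. Among genes with 4 to 8 kb of exons, the median ratio was 1.03 in males and 0.977 in females for spans under 25 kb, and 0.601 and 0.642 for spans of 400 kb or more. Among genes with spans under 50 kb, the median ratio was 1.02 and 1.04 with under 2 kb of exons and 1.03 and 0.954 with 8 kb or more. In genes of at least 200 kb it was 0.637 and 0.734 with 4 to 8 kb of exons and 0.660 and 0.688 with 12 kb or more. As a description, all 65 members of at least 200 kb had no overlap between UVB-irradiated and control males, and 64 had none in females. Among the 29 members under 50 kb this was 21 in males and 21 in females. Over all genes above the floor, 26.0% in males and 18.6% in females had all UVB mice below all controls. The selection used these values, and the shares over all genes of each span were not counted. The median control level in males was 11.2 CPM for the members of at least 200 kb and 7.01 CPM for those under 50 kb. Over all annotated genes above the floor it was 28.2 CPM, so the members were at lower levels.

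Genes that met the limit in a single sex were less uniform. Of the 152 genes at 0.5 or less in females 73.0% were also at 0.5 or less in males, and of the 357 in males 31.1% were so in females. The 246 genes that met the limit in males alone had a median ratio of 0.451 in males and 0.670 in females. In females 94.3% were below 1. Their median span was 35.6 kb and 24.4% spanned at least 200 kb. The 41 genes that met it in females alone had a median ratio of 0.605 in males and a median span of 30.8 kb, and 34.1% spanned at least 200 kb.

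In the following, members are grouped by the known role of their product. The grouping, and many of the examples in it, were chosen after the values were seen, and no test is attached to them. Adhesion and guidance molecules of the cell surface formed a group of 13 genes with a median span of 649 kb, 12 of them at least 200 kb long, and median ratios of 0.367 in males and 0.426 in females. *Cdh4* encodes R-cadherin, a calcium-dependent adhesion molecule, and had ratios of 0.247 in males and 0.250 in females. *Robo1* is a receptor for the guidance cue Slit and spans 739 kb. It was at 41.7, 36.3, 43.3 and 35.2 CPM in the control males and at 11.5, 10.7, 13.4 and 9 CPM in the UVB-irradiated males. Control females had 44.4, 58.6, 51.4 and 43.1 CPM, and UVB-irradiated females 16.6, 11.9, 20.4 and 16.9 CPM. All UVB values of *Robo1* were thus below all control values of the same sex.

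The teneurin *Tenm4*, a large transmembrane adhesion protein, was among the 5 most abundant members by the mean of both control groups, at 67.8 ± 9.41 CPM in control males and 28.7 ± 4.81 CPM after UVB (SD, n = 4). In females it was at 113 ± 30.6 and 52.2 ± 10.9 CPM. *Csmd1*, whose product has complement-like extracellular domains, was the longest member with 1643 kb (chr8:15942537-17585602, minus strand). It was at 5.57 ± 0.606 CPM in control males and 2.05 ± 0.464 CPM after UVB, and at 6.58 ± 0.594 and 2.64 ± 0.313 CPM in females. *Cntn1* and *Lsamp*, which encode adhesion proteins anchored to the membrane by a lipid and best known from neurons, had ratios of 0.319 and 0.320 in males and 0.469 and 0.439 in females. *Lsamp* was at 10.8 to 12.7 CPM in control males and 2.60 to 4.41 CPM in UVB-irradiated males, with 10.1 to 11.7 and 4.05 to 5.14 CPM in the females.

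These 3 genes belong to a list of 22 ion channel and neuronal adhesion genes, most of which are very long. Their fall is what selected them, and they are left out of the counts that follow. The 12 genes of the list above the floor, these 3 included, had a median span of 907 kb, and 11 of them spanned at least 200 kb. Of the others, 13 of 14 tested genes fell and 1 rose in males, with a median log2 fold change of -0.93, and 7 of 12 fell in females, with a median of -0.61. Over 14 other settings the count was 12 to 17 in males and 3 to 10 in females, where it was 3 without control replicate 2 or 4 and 4 without UVB replicate 3 or 4. Over all genes tested 30.5% and 10.6% fell, with medians of -0.023 and 0.0025. *Dlg2*, a synaptic scaffold gene, was at 24.0 ± 3.23 CPM in control males and 9.59 ± 1.75 CPM after UVB, and at 23.2 ± 3.36 and 12.8 ± 2.84 CPM in females, a ratio of 0.552 there. *Nrg1*, a ligand of ErbB receptors, was the gene that rose in males, from 0.392 to 0.945 CPM, and both values are near the detection limit.

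Among 14 genes of cell polarity, cytoskeleton and vesicle traffic, 13 spanned at least 200 kb and the median ratios were 0.404 in males and 0.416 in females. *Nckap5*, of little known function, had some of the lowest ratios, 0.241 in males and 0.213 in females. It was at 4, 4.83, 5.95 and 3.80 CPM in control males and at 1.5, 0.546, 1.17 and 1.27 CPM after UVB, and control females had 6.61, 8.44, 5.16 and 5.29 CPM against 1.40, 1.04, 1.61 and 1.37 CPM after UVB. Its neighbour downstream on the same strand, *Lypd1*, begins 101 bases past its end and was also a member, with ratios of 0.222 and 0.357. Reads that run past the end of a gene can be counted in the next one, so that values of these neighbours may not be independent.

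*Lpp*, which encodes a focal adhesion protein, and *Dock1*, which activates the small GTPase Rac, were among the more abundant members of this group. *Lpp* was at 86.6 to 99.8 CPM in control males and 39.5 to 52.0 CPM after UVB, and at 91.5 to 134 and 49.8 to 56.5 CPM in females. *Exoc4*, a subunit of the exocyst that tethers secretory vesicles, was at 52.5 ± 2.11 CPM in control males and 25.3 ± 1.44 CPM after UVB, with 60.0 ± 3.99 and 26.8 ± 2.51 CPM in females. For all 3 genes the groups did not overlap in either sex.

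Ion channels and transporters made up 11 members with a median span of 386 kb and median ratios of 0.312 in males and 0.406 in females. *Cacna1e*, the pore-forming subunit of R-type calcium channels whose upstream stretch is printed above, was at 12.2, 10.6, 13.3 and 12.9 CPM in control males and at 2.42, 1.70, 1.52 and 3.56 CPM in UVB-irradiated males. Control females had 15.8, 14.4, 16.6 and 16.8 CPM and UVB-irradiated females 6.08, 3.25, 4.75 and 4.30 CPM. The ranges of UVB and control mice were far apart in both sexes.

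*Itpr2*, a receptor that releases calcium from the endoplasmic reticulum, was the most abundant gene of this group, at 76.7 ± 9.38 CPM in control males and 29.3 ± 2.17 CPM after UVB, and at 87.9 ± 11.3 and 35.7 ± 3.64 CPM in females. *Slc24a3*, a sodium, potassium and calcium exchanger, had ratios of 0.221 and 0.343. Channels and transporters at low levels included *Gria4*, a glutamate receptor subunit, *Gabrp*, a subunit of the GABA receptor found in epithelia, and *Kcnj16*, an inwardly rectifying potassium channel, with control means of 2.12 to 7.01 CPM.

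Basement membrane and matrix genes numbered 10, of which 5 spanned at least 200 kb. *Col4a5* and *Col4a6* encode collagen IV chains that assemble together in basement membranes of the skin. *Col4a6* was at 25.4, 24.9, 33.3 and 32.1 CPM in control males and 6.17, 5.46, 8.87 and 6.46 CPM after UVB, and at 32.5, 37.5, 35.3 and 25.3 CPM in control females and 8.99, 4.78, 8.94 and 10.1 CPM after UVB. *Col4a5*, which starts next to it, was lowered less, with ratios of 0.453 and 0.491 against 0.233 and 0.251 for *Col4a6*. *Col4a6* spans 309 kb and *Col4a5* spans 214 kb.

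Also in this group were genes for further parts of the same layer and for a protease. *Lama1*, a laminin chain, had ratios of 0.274 and 0.318. *Frem2* and *Fras1*, which anchor the epidermal basement membrane to the dermis, had ratios of 0.398 and 0.409 in males and 0.398 and 0.461 in females. *Mmp9*, a secreted protease that degrades collagen IV, spans 17.3 kb and was at 23.8 ± 3.84 CPM in control males and 7.97 ± 0.725 CPM after UVB, with 26.5 ± 4.49 and 12 ± 2.36 CPM in females.

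**Figure D3:**
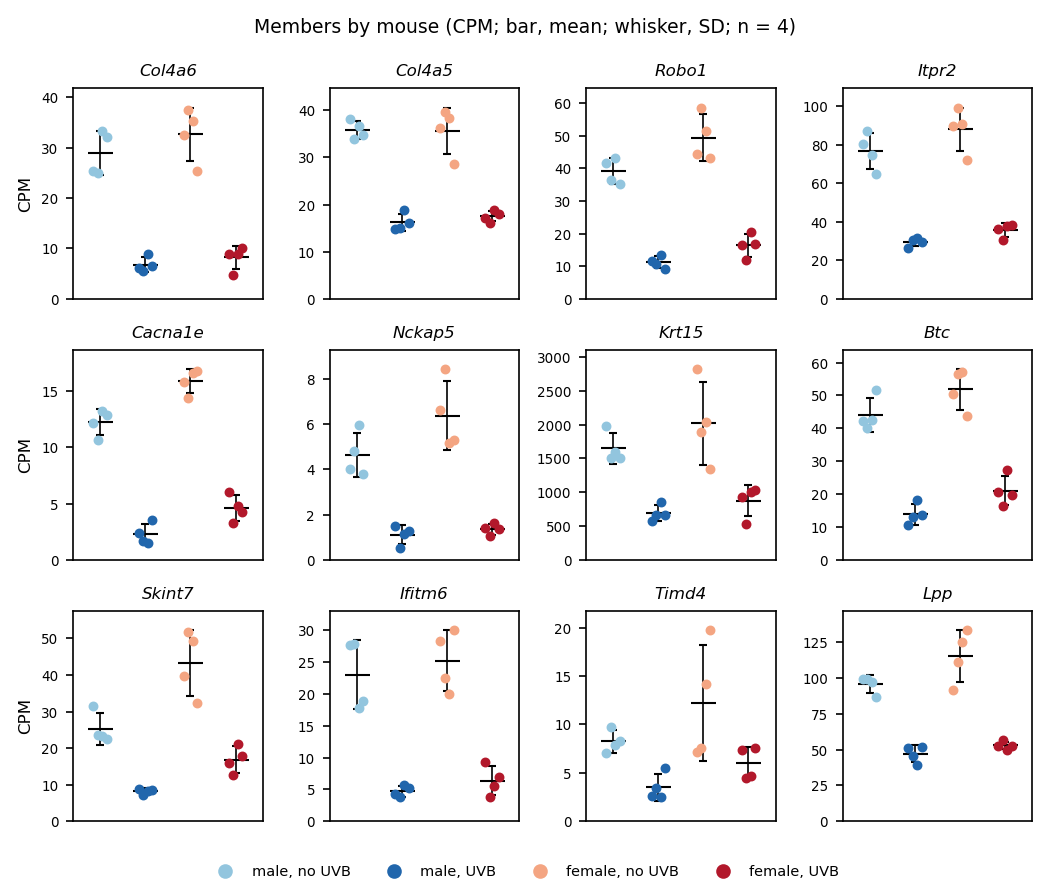
CPM of 12 members in every mouse, with a panel for each gene and its own linear axis from 0, points for mice, bars for group means and whiskers for the SD of 4 mice. In 11 of the 12 genes the UVB mice lie below all control mice of the same sex, and in *Timd4* the female groups overlap.

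Secreted signals and their receptors numbered 6, mostly short genes. *Btc* encodes betacellulin, a ligand of the EGF receptor, and was at 42.3, 40.1, 42.5 and 51.5 CPM in control males and 10.7, 13, 18.2 and 13.8 CPM after UVB. Control females had 50.5, 56.4, 57.0 and 43.6 CPM and UVB-irradiated females 20.8, 16.5, 27.3 and 19.8 CPM, so the groups did not overlap in either sex. *Eda* encodes ectodysplasin, a signal needed to form hair follicles in the embryo, and *Il20ra* a receptor chain for cytokines that act on keratinocytes, with ratios of 0.324 and 0.323 in males and 0.431 and 0.483 in females. The chemokine *Cxcl14*, expressed by keratinocytes, was at 80.0 ± 25.3 CPM in control males and 37.7 ± 3.07 CPM after UVB, and at 77.0 ± 5.33 and 37.4 ± 11.4 CPM in females. *Cxcl13*, a chemokine that attracts B cells, had 17.3 CPM in control female replicate 4 and 2.12 to 4.56 CPM in the other control females, and both sexes overlapped between control and UVB mice.

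*Krt15* (chr11:100022584-100026775, minus strand) encodes a keratin that marks the hair follicle bulge and is also made by basal keratinocytes. It had the highest control level of all members, with 1981, 1510, 1598 and 1506 CPM in control males and 572, 662, 853 and 663 CPM after UVB. In control females it was at 2825, 1884, 2035 and 1337 CPM, and after UVB at 933, 532, 1007 and 1029 CPM. The groups did not overlap in either sex. *Tgm7*, a transglutaminase gene, had ratios of 0.262 and 0.352 at control means of 6.06 and 7.02 CPM.

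Immune cell genes among the members were *Themis* and *Cd96*, which are known from T cells, *Timd4*, a receptor by which resident macrophages bind dying cells, and *Ifitm6*, known from myeloid cells. *Ifitm6* was at 27.7, 27.8, 17.8 and 18.9 CPM in control males and 4.19, 3.76, 5.68 and 5.19 CPM after UVB, and at 28.4, 22.5, 20 and 30.1 against 9.30, 3.74, 5.54 and 6.94 CPM in females. *Timd4* was at 7.02 to 9.78 CPM in control males and 2.48 to 5.49 CPM after UVB, and at 7.18 to 19.8 and 4.47 to 7.53 CPM in females, where the groups overlapped. *Skint7*, of a family of skin and thymus genes known for shaping the T cells of the mouse epidermis, was at 22.4 to 31.6 CPM in control males and 7.15 to 8.92 CPM after UVB, and at 32.3 to 51.9 and 12.5 to 21.2 CPM in females. *Skint* genes resemble each other, and reads shared between copies are not in these counts.

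Transcription and chromatin genes numbered 7, of which 5 spanned at least 200 kb. *Aff3*, related to subunits of the super elongation complex, was at 48.6 ± 4.66 CPM in control males and 20.4 ± 5.05 CPM after UVB, and at 72.3 ± 21.9 and 35.1 ± 3.34 CPM in females. *Maml3*, a coactivator of Notch signalling, *Smyd3*, a lysine methyltransferase, and *Sox5*, a transcription factor with a role in melanocytes, had male ratios of 0.488, 0.342 and 0.489.

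Of the 11 genes of metabolism and protein modification, 8 spanned at least 200 kb. *Fhit*, which encodes a small hydrolase and lies over a site of frequent DNA breakage, spans 1612 kb but has only 1.49 kb of exons. It was at 2.23 ± 0.318 CPM in control males and 0.886 ± 0.142 CPM after UVB, and at 2.86 ± 0.137 and 0.922 ± 0.203 CPM in females. *Naaladl2*, a peptidase-like gene of 1346 kb, was at 15.7 ± 1.79 and 5.31 ± 1.45 CPM in males and 17.6 ± 2.39 and 6.29 ± 1.47 CPM in females. *Ccser1*, of unknown function and 1203 kb long, had ratios of 0.340 and 0.331, and *Dab1*, an adaptor protein of the reelin pathway with 1125 kb, had ratios of 0.157 and 0.313. These genes and *Csmd1* are the 5 longest protein-coding members.

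Small secreted proteins formed a group of 5 short genes with spans of 1.16 to 4.07 kb. *Hamp2* and *Hamp*, neighbours 17.7 kb apart on chromosome 7, encode hepcidin peptides, and hepcidin is the hormone that limits iron release from cells. *Hamp2* was at 50.8, 24.6, 63.4 and 91.9 CPM in control males and at 4.25, 4.18, 5.32 and 8.65 CPM after UVB. In control females it was at 127, 212, 157 and 103 CPM, and after UVB at 56.6, 77.7, 70.2 and 80.5 CPM. *Hamp* had 2, 0, 0 and 3 reads in the UVB-irradiated males, at or under a floor of 3 reads per library, so that no fold is given. Control males were at 0.756, 0.345, 2.78 and 5.11 CPM, a wide range that comes close to the floor in replicate 2. In females it was at 8.25 ± 4.64 CPM without and 2.07 ± 0.593 CPM with UVB. The sequences of *Hamp* and *Hamp2* are alike, as are those of the major urinary protein genes *Mup7* and *Mup11*, and only reads with a single best place were counted, so their values are uncertain. *Mup7*, *Mup11* and the gut peptide gene *Pyy* had control means of 2.50 to 6.73 CPM with SDs of 1.17 to 5.77 CPM, and each overlapped between control and UVB mice in both sexes.

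The 5 members with the lowest ratios over both sexes included ENSMUSG00000075014.2, which has no name or annotation here. It had 11.3 CPM in control female replicate 1 and 1.69 to 2.23 CPM in the other control females, against 0.312 to 0.727 CPM in UVB-irradiated females. Control males had 0.556 to 3.82 CPM and UVB-irradiated males 0.182 to 0.507 CPM. The 6 long non-coding RNAs had control means of 2.03 to 10.4 CPM and spans of 4.92 to 139 kb.

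The selection did not compare the sexes, but it used the means of all 4 groups, so neither the sex differences without UVB nor those after UVB are independent of it, and the counts are a description. Without UVB, 7.21% of the 17406 genes tested with edgeR's quasi-likelihood test were higher in males and 4.58% higher in females. Among the 111 members 8 (7.21%) were higher in males and 11 (9.91%) higher in females. Without control male replicate 2 these counts were 4 and 5. The largest difference was in *Akr1c14*, a steroid dehydrogenase, which was at 7.24, 13.7, 10.3 and 13.2 CPM in control males and 58.5, 82.0, 105 and 185 CPM in control females. The log2 difference of males from females was -3.12 (standard error 0.437, adjusted p = 0.000557), and after UVB it was -3.20 (adjusted p = 0.000799). *Bcat1*, an enzyme of branched-chain amino acid breakdown, went the other way, with 9.24 to 17.8 CPM in control males and 1.81 to 4.84 CPM in control females (2.18, standard error 0.389, adjusted p = 0.00317), and with a difference of 2.01 after UVB (adjusted p = 0.00652).

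*Cdh4* was higher in males with the smallest adjusted p, at 56.2, 47.9, 59.3 and 45.1 CPM in control males and 25.4, 31.9, 34.6 and 29.6 CPM in control females (log2 difference 0.94, standard error 0.106, adjusted p = 3.01e-05). After UVB it was at 11.0 to 14.4 CPM in males and 7.01 to 8.26 CPM in females (0.82, adjusted p = 0.000413), so neither treatment showed overlap between the sexes. *Eda* and the noradrenaline transporter gene *Slc6a2* were also higher in control males, by 0.39 (adjusted p = 0.0124) and 0.73 (adjusted p = 0.0202) on the log2 scale. All of these calls held in each of the 16 fits that left out 1 mouse.

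After UVB, of the 111 genes 31 (27.9%) were higher in females and 2 (1.80%) higher in males, while over all 17406 genes tested these shares were 12.5% and 12.8%. In 96 members (86.5%) the female value was the higher, against 51.0% of all genes tested. *Hamp2* differed most clearly, with a log2 difference of -3.62 (standard error 0.377, adjusted p = 6.88e-05), and it was 4.18 to 8.65 CPM in males and 56.6 to 80.5 CPM in females. *Thsd4*, whose product binds fibrillin fibres, was at 2.39 to 3.6 CPM in UVB-irradiated males and 5.19 to 6.36 CPM in UVB-irradiated females (-0.83, adjusted p = 0.000982). *Skint7* differed by -0.95 (adjusted p = 0.00198). These 3 genes were already lower in males without UVB, with log2 differences of -1.22, -0.44 and -0.62 (adjusted p = 0.0321, 0.0298 and 0.0231), and the interaction was not called for *Thsd4* and *Skint7* (adjusted p = 0.219 and 0.422).

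**Figure D4:**
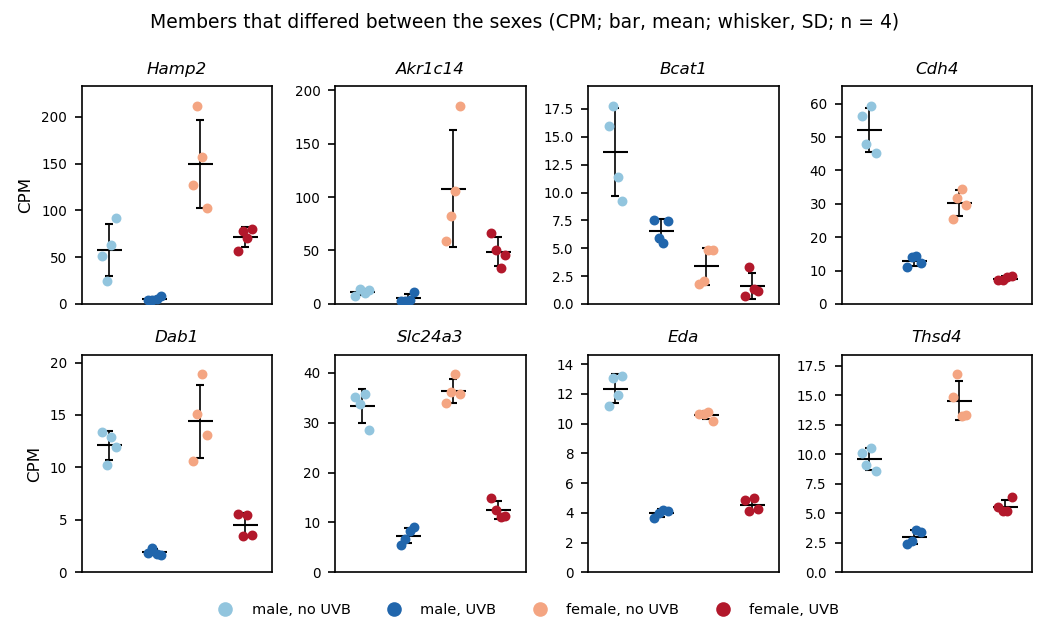
CPM of 8 members that differed between the sexes, in every mouse, with a panel for each gene and its own linear axis from 0, points for mice, bars for group means and whiskers for the SD of 4 mice. *Akr1c14* is far higher in females with and without UVB, *Bcat1* and *Cdh4* are higher in males, and *Hamp2* is near 0 only in UVB-irradiated males.

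The difference of the responses themselves was tested with the interaction over all 16 mice. In 4.25% of the 17406 genes the log2 fold change was lower in males and in 2.75% it was higher. Among the members 5 (4.50%) were lower in males and 0 higher by edgeR, a share close to that over all genes. By DESeq2's Wald test 10 (9.01%) were lower and 0 higher, against 6.24% and 7.33% of 15040 genes. At an unadjusted p under 0.05, edgeR had 25 (22.5%) lower and 0 higher, against 11.7% and 9.11% of all genes. The selection bounds both responses from above, so members could not differ freely. The 5 genes were *Hamp2* (-2.40, adjusted p = 0.0239), *Dab1* (-1.09, adjusted p = 0.0418), *Slc24a3* (-0.74, adjusted p = 0.0420), *Eda* (-0.52, adjusted p = 0.0487) and the calcium-permeable channel gene *Trpm3* (-0.73, adjusted p = 0.0964). *Dab1* was at 10.3 to 13.4 CPM in control males and 1.68 to 2.30 CPM after UVB, and at 10.6 to 18.9 and 3.50 to 5.51 CPM in females. *Slc24a3* was at 28.5 to 35.9 and 5.54 to 9.05 CPM in males, and at 34.0 to 39.7 and 11.1 to 15 CPM in females. The call of *Trpm3* was lost in 13 of the 16 fits that left out 1 mouse.

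To ask which skin cells the 111 genes point to, they were compared with lists of marker genes for 24 cell types. Only 2 lists held a member, the hair follicle bulge list with *Krt15* (1 of 10 genes) and the resident macrophage list with *Timd4* (1 of 24), and the other 22 cell type lists held none, the melanocyte list included. The lists hold only the markers written into them. The members *Themis*, *Cd96* and *Ifitm6*, described above as known from T cells or myeloid cells, are in none of them. Most members, long genes of adhesion, channels and polarity in particular, are not markers of any of the cell types listed.

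In males 30.5% of all genes tested fell and in females 10.6%. The member in each list is left out of the counts that follow, since its fall was selected. Of the other genes of the bulge list 6 of 9 fell in males and 2 of 9 in females, with median log2 fold changes of -0.52 and -0.25. *Lgr5*, a receptor found on follicle stem cells, fell from 24.7 ± 6.95 to 14.5 ± 2.12 CPM in males (adjusted p = 0.00672 by edgeR) and from 21.0 ± 4.72 to 13.6 ± 1.69 CPM in females (adjusted p = 0.0268). *Cd34* fell in males (-0.62, adjusted p = 0.000525) and was at -0.23 in females (adjusted p = 0.205). *Sox9* was at 0.34 in males and -0.23 in females (adjusted p = 0.177 and 0.580). The summed level of these 9 genes was 747 to 785 CPM in control males and 501 to 603 CPM after UVB, and 756 to 854 and 594 to 700.5 CPM in females.

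Of the resident macrophage list without *Timd4*, 13 of 22 tested genes fell in males and 3 of 23 in females, a share in females near that over all genes, and the median log2 fold changes were -0.32 and -0.29. *Adgre1*, which encodes the macrophage antigen F4/80, fell by 0.44 in males (adjusted p = 0.00107) and by 0.36 in females (adjusted p = 0.0690). *Cd163*, *Mrc1* and *Lyve1* were at -0.26, -0.15 and -0.21 in males and -0.20, -0.36 and -0.54 in females, and none of these passed the threshold.

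No member is among the genes of the next lists. Of the Langerhans and dendritic cell list 9 of 12 genes fell in males and 3 of 12 in females. *Cd207*, which encodes langerin, fell from 21.6 ± 4.36 to 12.8 ± 3.03 CPM in males (adjusted p = 0.00705) and was at 33.1 ± 9.18 and 25.8 ± 5.20 CPM in females (adjusted p = 0.351). Of the T cell list 9 of 11 genes fell and 2 rose in males, and 4 of 11 fell in females. *Cd3e* fell by 0.84 in males and by 0.50 in females (adjusted p = 0.00233 and 0.0456), and *Trdc*, the constant region of the delta T cell receptor, by 0.52 and 0.74 (adjusted p = 0.00496 and 0.0203). *Cd4* and *Foxp3* were the 2 T cell genes that rose in males (adjusted p = 0.0761 and 0.0585), and the count of risen genes was 0 to 2 over 14 other settings, with 0 without control or UVB replicate 2 and 1 without control replicate 1, 3 or 4 or UVB replicate 4. Pericyte and smooth muscle genes fell for 8 of 12 in males and 3 of 12 in females, dermal papilla genes for 3 of 7 and 2 of 8, and Merkel cell genes for 2 of 5 and 1 of 5.

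The female counts of several lists moved by more than 1.5 times over 14 other settings. Fallen genes numbered 1 to 7 for the macrophage list, with 1 without control replicate 3 or 4 or UVB replicate 1, 3 or 4, 6 without control replicate 1 and 7 without control replicate 2. They numbered 1 to 4 for the Langerhans and dendritic cell list, with 1 without control replicate 3 or UVB replicate 1 or 3. For the T cell list the range was 1 to 4, with 1 without control replicate 2 and 2 without UVB replicate 1, 3 or 4, and for the bulge list it was 2 to 4, with 4 without control replicate 4. For the dermal papilla list it was 1 to 3, with 1 when no filter beyond 1 read in all was used. The male counts of the first 4 of these lists were 11 to 15, 6 to 11, 7 to 9 and 5 to 6, and that of the dermal papilla list was 3 to 4.

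Of the suprabasal keratinocyte list 10 of 12 genes rose in males and 9 of 12 in females, and the summed level went from 9526 to 14455 CPM in control males to 23254 to 28614 CPM after UVB, and from 10312 to 15368 to 16552 to 21031 CPM in females. Fibroblast genes fell for 12 of 13 in males and 1 of 13 in females, skeletal muscle genes for 11 of 15 and 0 of 15, Schwann cell and nerve genes for 10 of 12 and 1 of 12, and adipocyte genes for 8 of 12 and 0 of 12. Over the other settings the female count was 0 to 5 for fibroblast genes, with 5 without UVB replicate 2, and 0 or 1 for skeletal muscle and for Schwann cell and nerve genes. The male count for adipocyte genes was 5 to 11, with 5 when no filter beyond 1 read in all was used. Whether these lists differed between the sexes was not tested. The part of such shifts in the lower level of the members was not tested.

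**Figure D5:**
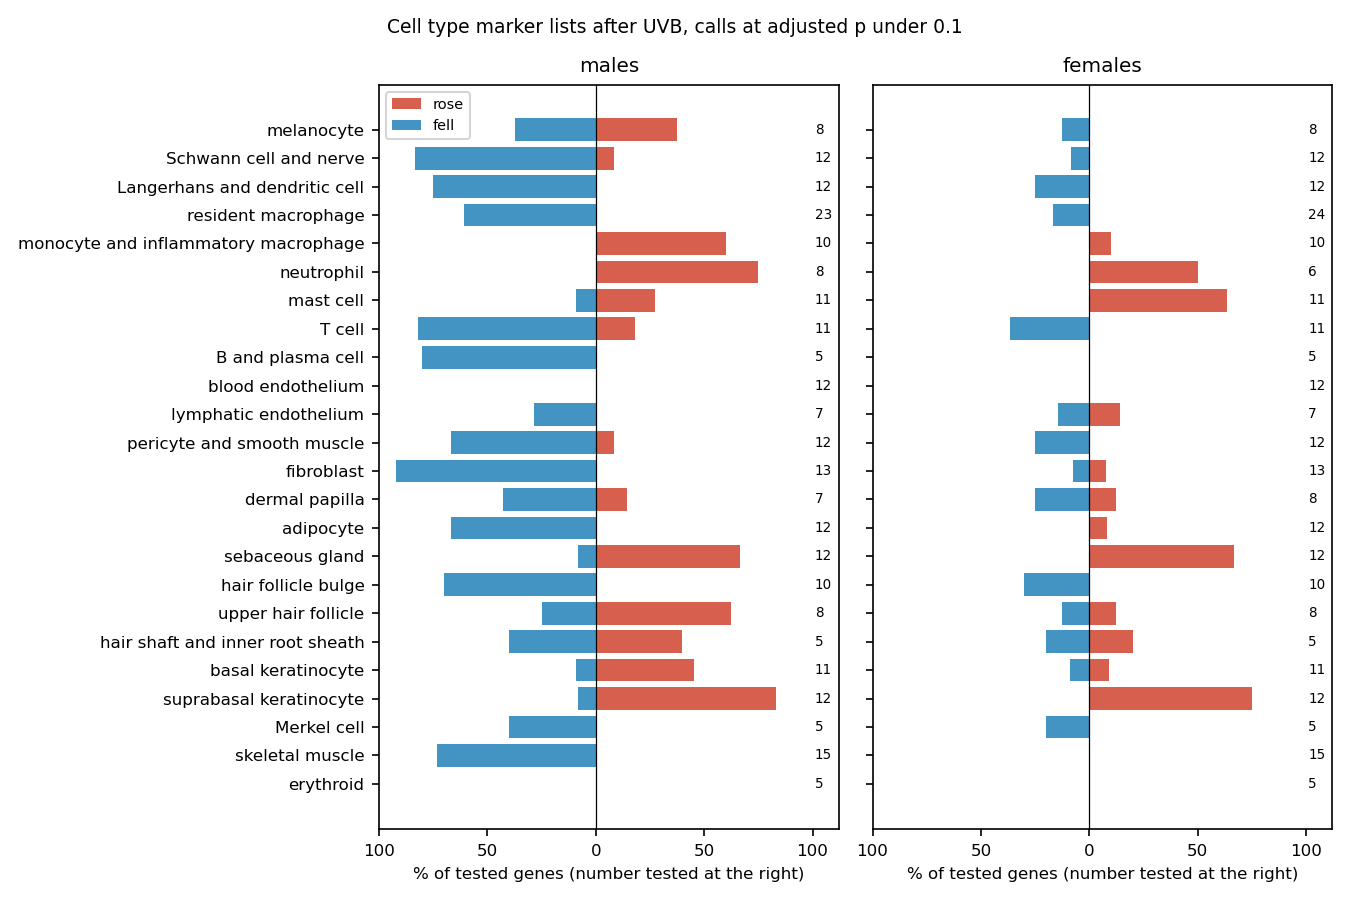
Percentage of tested genes of each of 24 cell type lists that rose (red, right) or fell (blue, left) after UVB at an adjusted p under 0.1 by edgeR, males in the left panel and females in the right, with the number of genes tested at the right edge of each panel. Suprabasal keratinocyte and sebaceous gland genes rise in both sexes, and falling genes in both sexes are seen in the bulge, T cell, Langerhans and dendritic cell, macrophage, pericyte, dermal papilla and Merkel cell lists among others. The bulge and macrophage bars include *Krt15* and *Timd4*. The number of sebaceous gland genes that rose in females was 8, and 3 to 9 over 14 other settings.

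Of 17 genes of Wnt signalling and its antagonists 10 fell and 2 rose in males and 5 fell and 0 rose in females, with medians of -0.37 and -0.36. Of 17 BMP and TGF-beta genes 11 fell and 2 rose in males, and 1 fell and 1 rose in females, where 0 to 2 fell over the other settings. None of these genes met the limit in both sexes.

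Values at the limit give its scale. Just inside were *Sh3gl2*, a gene of membrane curvature at the synapse, with ratios of 0.500 in males and 0.474 in females, *Sox5* with 0.489 and 0.499, *Cd96* with 0.406 and 0.497, the non-coding *A830036E02Rik* with 0.495 and 0.467, and *Timd4* with 0.426 and 0.493. Just outside were *Epha3*, an ephrin receptor, with 0.416 and 0.501, *Klf12* with 0.476 and 0.501, *Atrnl1* with 0.410 and 0.501, *Spon2* with 0.502 and 0.30, and *Myh7b* with 0.370 and 0.502. *Epha3*, *Klf12* and *Atrnl1* span 321, 419 and 523 kb. Leaving out 1 mouse at a time gave 101 to 122 genes, and 67 of the 111 met the limit in all 16 such repeats.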

How the data were processed

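RNA-seq counts of 16 whole dorsal skin samples were used. The authors deposited raw read counts per gene for each mouse, made with STAR on GRCm39 per the submitters' processing notes, and reads with several equally good places are listed as 0. The counts of the strand that matches the kit were used, and rows that name no gene were left out of the library sizes. Reads on genes made up 70.1% to 79.2% of a library. CPM were computed per 1000000 reads on genes. Of 55359 gene IDs, 54749 matched the GENCODE annotation and 610 did not.

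Males and females were fitted apart with edgeR 4.0.16 in R 4.3.3 (quasi-likelihood, robust, filterByExpr, TMM, Benjamini-Hochberg adjusted p under 0.1), and sex differences and the interaction in a fit of all 16 mice. Alternatives used DESeq2 1.42.0, other scalings and filters, unstranded counts, a replicate block and leaving out each mouse. The scripts were tested on simulated data. Named were members in a fixed list, the 10 lowest by mean ratio, the 5 longest, the 5 nearest the limit on each side, up to 5 called per sex comparison, the 5 most abundant, and up to 4 markers per list. Other genes were named after their values were seen. The members and lists were chosen with earlier results of these data known.

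One upstream sequence is not reported here.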

Additional observations from a re-analysis of the deposited data

Results flagged for a closer look

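Of 128 groups of 4 mice among the 32 members named by rule, 6 had a mouse whose CPM lay far from the other 3 by Dixon's test, and chance alone gives about 1 in 20. ENSMUSG00000075014.2 was at 11.3 CPM in control female replicate 1 and at 1.69 to 2.23 CPM in the others. *A830036E02Rik* was at 8.27 CPM in the same mouse and at 2.75 to 3.64 CPM in the others. *Sox5* was at 7.03 CPM in control female replicate 4, with the others at 4.75 to 4.88 CPM. *Skint7* was at 31.6 CPM in control male replicate 1, with the others at 22.4 to 23.5 CPM. *Akr1c14* was at 11.3 CPM in UVB-irradiated male replicate 4, with the others at 2.87 to 3.50 CPM. *Naaladl2* was the one low value, at 4.12 CPM in UVB-irradiated female replicate 2 against 6.80 to 7.33 CPM in the others.

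In 5 members the log2 response to UVB differed between males and females by the interaction test of edgeR, and each was lowered further in males. This is 4.50% of the 111 members against 4.25% of all genes tested, and the count ran from 1 to 9 when 1 mouse was left out. The differences were -2.40 for *Hamp2*, -1.09 for *Dab1*, -0.744 for *Slc24a3*, -0.515 for *Eda* and -0.731 for *Trpm3*. In the 16 fits that left out 1 mouse each, the call was kept in 16 for *Hamp2*, 15 for *Dab1*, 15 for *Slc24a3*, 13 for *Eda* and 3 for *Trpm3*.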

How the results depend on the processing

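The selection gave 111 genes, 68 with a floor of 5 CPM, 138 with a floor of 1 CPM, 79 with TMM or DESeq2 scaling, 101 with unstranded counts (99 shared) and 111 with medians (95 shared). Leaving out 1 mouse gave 101 to 122. Members higher in control females numbered 11, or 7 with no filter beyond 1 read in all, and 5 to 11 when 1 mouse was left out, with 6 without control female replicate 2, 7 without control male replicate 1, 5 without control male replicate 2 and 7 without control male replicate 4. Members higher in control males numbered 8 and then 4 to 9, with 5 without control female replicate 1 or 2 and 4 without control male replicate 2. Members with a lower response in males numbered 5, against 10 by DESeq2's Wald test, 3 without that filter and 1 to 9 with 1 mouse left out. These were 1 and 9 without UVB-irradiated female replicates 1 and 2, 3 and 8 without UVB-irradiated male replicates 1 and 4, and 3 without control male replicate 2. The causes were not tested. Upper quartile scaling moved the split of all genes in males from 4802 risen and 5051 fallen to 3880 and 6130, and in females from 2162 and 1787 to 1737 and 2157, so that more genes fell than rose there. Of 1736 recomputed counts over gene lists, 201 lay outside 1.5 times the main count.

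Mice of different groups share replicate numbers, but the correlation of deviations between same-numbered mice ran from -0.258 to 0.376, so the numbers were not taken as pairs. With the number as a replicate block, 4680 genes rose and 4936 fell in males, 1967 rose and 1514 fell in females, and 7 and 10 members were higher in control males and females, 3 and 30 after UVB, with 5 interaction calls.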

Other observations

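Of 672 genes above the floor that span at least 200 kb, 12 had a ratio of at least 1 in both sexes, and these were looked up after the values were seen. *Rora*, a nuclear receptor gene of 734.5 kb, was at 241 CPM in control males and 316.3 CPM after UVB, and at 242.1 and 289.5 CPM in females. *Acoxl* had the highest ratios of the 12, 1.66 in males and 1.77 in females. *Tjp1*, which encodes a tight junction protein, was at 126.3 and 160.1 CPM in males and 146.6 and 155.4 CPM in females.

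Some genes met the limit in males and not in females, and 2 are given as a description, with no test, since they were chosen for this pattern. *Fos*, an immediate early transcription factor gene, went from 109.3 to 15.03 CPM in males and was at 15 and 15.86 CPM in females. *Dusp1*, a phosphatase gene of the same early response, was at 191.1 and 43.8 CPM in males without and with UVB and at 72.2 and 60.63 CPM in females.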
